A study of Mus musculus with 4 samples.

Results

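Activated fibroblasts that expressed Postn together with Cthrc1 made up 1548 of the 44626 cells kept, and of 53824 cells deposited, from mouse heart grafts collected on day 5 after transplantation. A cell was counted among them when it had at least 10 UMIs of Dcn (decorin, a small matrix proteoglycan that marks fibroblasts), at least 5 of Postn (periostin, a matricellular protein) and at least 1 of Cthrc1 (a secreted collagen-domain protein of matrix-producing fibroblasts). It also had fewer than 5 UMIs of Prg4 (lubricin, made by another stromal population) and none of Ptprc (the leukocyte antigen CD45). A UMI is a unique molecular identifier, the tag that counts a captured transcript, and cells were kept with over 200 detected genes and under 20% of UMIs from mitochondrial genes. The study placed hearts in the abdomen of male C57BL/6J recipients, with mice of 8 to 10 weeks. There were 2 allogeneic grafts, from Balb/C donors, and 2 syngeneic grafts, from C57BL/6J donors, with no other allele or agent given, and a 10x Genomics 3' library was made from the enzymatically dissociated cells of each. A heart in this position is perfused and beats but does not carry the circulation, and a graft holds cells of donor and of recipient, which were not told apart here. The deposited matrix marks cells by barcode suffixes 1 to 4, called libraries 1 to 4 below. No source used here ties a suffix to a graft, so allogeneic and syngeneic grafts were not compared, the libraries are not replicates, and no p-value is given.

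Resident fibroblasts of the heart keep up a thin collagen network between the myocytes. After injury they leave this state, multiply, and secrete fibrillar collagens together with the proteins that fold, space and crosslink them, under the influence of transforming growth factor beta, mechanical load and cytokines. Some acquire contractile proteins of smooth muscle, among them alpha-smooth muscle actin, and are then called myofibroblasts, while cells expressing Postn, Cthrc1 and Cilp are known as a matrix-producing state in injured hearts.

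The activated cells were spread very unequally over the libraries. There were 254 in library 1, 10 in library 2, 1240 in library 3 and 44 in library 4, so library 3 supplied most of them. They were set against the Dcn fibroblasts, the cells that met the same limits for Dcn, Prg4 and Ptprc whatever their Postn and Cthrc1, of which there were 2289, 239, 2065 and 159. Activated cells were 11.1% of the Dcn fibroblasts in library 1 (exact Clopper-Pearson 95% interval 9.84 to 12.5), 4.18% in library 2 (2.02 to 7.56), 60.05% in library 3 (57.9 to 62.2) and 27.7% in library 4 (20.9 to 35.3). Over all libraries the share was 32.6% (31.2 to 33.9), a mean that library 3 dominated, since the share without it was 11.5% and without library 1 was 52.5%. Libraries 1 and 3 held similar shares of Dcn fibroblasts among their kept cells, 22.2% and 20.96%, whereas libraries 2 and 4 held 1.82% and 1.41%. Of the remaining Dcn fibroblasts, 706 had Postn without Cthrc1, 275 had Cthrc1 with under 5 UMIs of Postn, and 2223 had neither. The last are called other Dcn fibroblasts here and serve as the comparison.

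**Figure D1:**
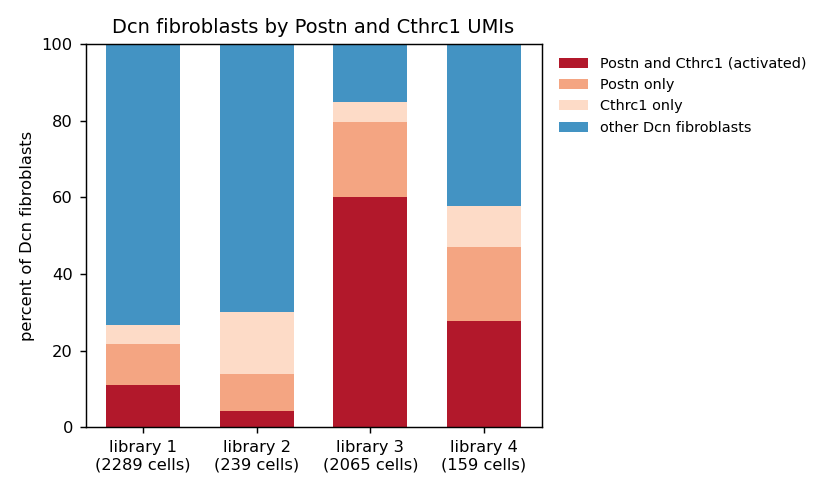
Share of Dcn fibroblasts (percent, y axis) in each of 4 classes by Postn and Cthrc1 UMIs, per library (x axis, with the number of Dcn fibroblasts). The activated cells fill 60.05% of the bar in library 3 and 4.18% in library 2, and the limits on UMIs define the classes.

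Because the limits were in raw UMIs, they favoured deeply covered cells. Activated cells had a median of 21787, 36046.5, 21729.5 and 41460.0 non-mitochondrial UMIs in libraries 1 to 4, against 10577, 21040.0, 10077.5 and 9415 in the other Dcn fibroblasts. With the same limits taken per 10000 UMIs of the cell, 1426 of 6979 Dcn fibroblasts, or 20.4%, qualified. Depth differs between the classes in every library, so levels are given below as CPM, the UMIs of a gene per 1000000 non-mitochondrial UMIs of the same cells. Their intervals are exact Poisson 95% intervals, and all intervals here cover counting error only. The activated cells held 7.54% of all non-mitochondrial UMIs of the kept cells but 65.8% of the UMIs of Postn and 74.7% of those of Cthrc1, both used by the rule. They also held 71.3% of the UMIs of Sfrp2, 67.9% of Ddah1, 62.7% of Thbs4, 60.8% of Cilp and 54.7% of Col1a1, which the rule did not use. Their share of Acta2 UMIs, at 6.26%, was below their share of all UMIs, and smooth muscle is known as its main source in the heart.

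The levels of Cilp and Col1a1 bore out the label of activated fibroblasts in libraries 1 and 3, less clearly in library 4 and not in library 2. Dcn, a marker used by the rule, was lower than in the other Dcn fibroblasts. It had 13686, 7716.5 and 4118 CPM in libraries 1, 3 and 4, against 22488, 14958.5 and 5805 CPM. Activated cells of library 1 also kept resting markers, with a Clec3b UMI in 75.2% and a Pi16 UMI in 84.65% of them. Cilp, which encodes cartilage intermediate layer protein and was among the markers but not in the rule, stood at 892 CPM (867 to 917) in library 1, 1542 (1528 to 1557) in library 3 and 181 (161 to 202) in library 4. A Cilp UMI was found in 78.7% and 93.0% of the activated cells of libraries 1 and 3 but in 17 of 44 in library 4, or 38.6%, against 3.53%, 15.1% and 0.647% of endothelial cells, taken as cells with at least 5 UMIs of Cdh5, under 10 of Dcn and none of Ptprc. In the 10 cells of library 2 it rested on 3 UMIs, or 8.12 CPM (1.68 to 23.7), in 1 of the cells. Col1a1, the main chain of type I collagen, was at 303 CPM in the cells of library 2 and at 13299, 9938 and 9729 CPM in libraries 1, 3 and 4. These 10 cells instead had 6635 CPM of Cxcl5, a chemokine for neutrophils, and 1489 CPM of Ptx3, which encodes pentraxin 3, and the other Dcn fibroblasts of library 2 had 8437 and 1342 CPM of these. The 10 cells are therefore given as values only, and ratios between classes use libraries 1, 3 and 4, which had at least 30 cells of each class.

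Markers of other cell types were present and were mostly lower in the activated cells than in the other Dcn fibroblasts. The 8 endothelial markers summed to 859, 1623 and 209 CPM in activated cells of libraries 1, 3 and 4, against 1773, 2596 and 996 CPM in the other Dcn fibroblasts, with Fabp4 the most abundant in each. In library 4 the defining marker Cdh5 was at 1.75 CPM in activated cells and at 103 CPM in the others, and Kdr had no UMI in these activated cells. The 8 macrophage markers summed to 83.4, 214 and 381 CPM, against 137, 258 and 580 CPM, led by Lyz2. The 8 mural markers summed to 120, 215 and 80.5 CPM, against 183, 286 and 122 CPM, and Myh11, a defining gene of smooth muscle, had no UMI in activated cells of library 4, nor had Vtn. The 5 red cell genes summed to 1068, 281 and 17.5 CPM, against 3282, 694 and 17.1 CPM. The part of such RNA in the differences below was not tested. Cells with at least 3 UMIs summed over Cdh5, Pecam1, C1qa, Csf1r, Rgs5 and Kcnj8 were marked as possible doublets, and these were 460 of the 1548 cells, or 29.7%, against 19.6% of the other Dcn fibroblasts. Within libraries 1, 3 and 4 the shares were 16.5%, 32.5% and 31.8% against 16.8%, 25.8% and 32.8%. Across libraries 308 barcode sequences occurred more than once, and 14 activated cells had such a barcode, none of them shared with another activated cell.

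Against the other Dcn fibroblasts, activated cells were set apart by genes of the extracellular matrix on the high side and by genes that included mesothelial and endothelial markers on the low side. Of 7638 genes with at least 20 CPM in either class, 119 were called higher, which is 1.56% of those tested. A further 123 genes were called lower, or 1.61%. A call meant a mean log2 ratio over the 3 libraries of at least 1 in size, with 10 CPM added to both levels and the same sign in every library. The median over all genes tested was −0.07. The cells were chosen by their own transcripts, so these ratios describe the cells and are not tests. The gene lists below were drawn up with earlier results of these data known, so their counts of calls are no separate support. Each such count stands beside the 1.56% called higher and 1.61% called lower of all genes tested.

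**Figure D2:**
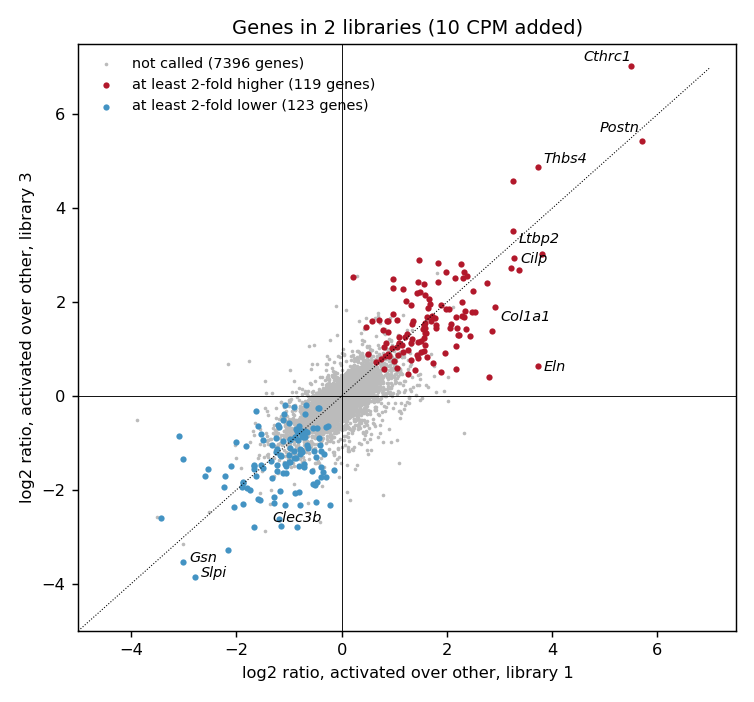
Each point is a gene, with its log2 ratio of activated over other Dcn fibroblasts in library 1 (x axis) and in library 3 (y axis), 10 CPM added to both levels. The 119 genes called higher lie in the upper right and the 123 called lower in the lower left, with Cthrc1 and Postn, both used by the rule, at the top and Eln far to the right of the diagonal.

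The highest ratios outside the rule belonged to secreted matrix proteins. Thbs4, a thrombospondin of tendon and injured heart (Ensembl gene ENSMUSG00000021702, GRCm38 chromosome 13, 92751590 to 92794818), had 167 CPM (156 to 178) in activated cells of library 1, 659 (650 to 669) in library 3 and 21.6 (15.2 to 29.8) in library 4. The other Dcn fibroblasts had 3.24, 12.8 and 3.81 CPM of it, a mean log2 ratio of 3.27. In library 4 a single cell gave 24 of the 37 Thbs4 UMIs, and only 4 of 44 cells had any. Leaving that cell out, a step chosen after seeing the data, gave 7.79 CPM. Cilp (ENSMUSG00000042254, chromosome 9, 65265180 to 65280605), with the levels above, had 82.9, 193 and 6.66 CPM in the other Dcn fibroblasts and a mean log2 ratio of 3.24. Its log2 ratios were 3.28, 2.93 and 3.52, the last against a level below the 10 CPM added. Ltbp2, a latent TGF-beta binding protein of the microfibrils (ENSMUSG00000002020, chromosome 12, 84783212 to 84876532), was at 250.3 CPM (237 to 264), 757 (747 to 767) and 394 (365 to 425), against 17.2, 57.4 and 53.3 CPM. This gave a mean log2 ratio of 3.15, and no library fell below 2.67. Calls for Cilp and Ltbp2 were kept under each of the 13 alternative settings tried, and the call for Thbs4 was lost only when cells were thinned to 2000 UMIs.

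The regions around the start sites of these 3 genes are shown because they had the highest ratios outside the rule. Windows of 300 bases, 250 before and 50 after the start, were available for 8 of the 15 genes with the highest ratios. Capitals mark CAGAC, the letters of a SMAD site, GGAATG, the letters of a TEAD site, and TGANTCA, the letters of an AP-1 site that read the same on both strands, each searched on both strands. Overlapping matches run together, as in the Thbs4 window, where 2 matches of GGAATG share letters. The Thbs4 window is chr13:92794769-92795068 on the minus strand, the Ltbp2 window chr12:84876442-84876741 on the minus strand and the Cilp window chr9:65264930-65265229 on the plus strand, all of GRCm38.p6 in RefSeq.
Thbs4: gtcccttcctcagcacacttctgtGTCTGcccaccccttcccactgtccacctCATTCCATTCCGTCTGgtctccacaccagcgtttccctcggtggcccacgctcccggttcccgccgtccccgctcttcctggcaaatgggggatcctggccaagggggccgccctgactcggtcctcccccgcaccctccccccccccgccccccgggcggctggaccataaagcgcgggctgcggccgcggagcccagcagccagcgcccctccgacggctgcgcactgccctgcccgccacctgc
Ltbp2: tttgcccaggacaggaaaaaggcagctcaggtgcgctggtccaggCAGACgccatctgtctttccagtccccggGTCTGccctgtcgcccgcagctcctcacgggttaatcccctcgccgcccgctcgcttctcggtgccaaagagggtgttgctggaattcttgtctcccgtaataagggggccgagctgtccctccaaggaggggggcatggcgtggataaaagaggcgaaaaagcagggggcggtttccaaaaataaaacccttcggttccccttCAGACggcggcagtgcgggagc
Cilp: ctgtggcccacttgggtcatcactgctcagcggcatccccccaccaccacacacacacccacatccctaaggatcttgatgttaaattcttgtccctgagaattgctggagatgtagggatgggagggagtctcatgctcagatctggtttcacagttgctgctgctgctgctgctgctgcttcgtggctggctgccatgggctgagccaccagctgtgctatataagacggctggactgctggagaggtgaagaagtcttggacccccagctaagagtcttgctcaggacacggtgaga
The Thbs4 window held 2 matches of CAGAC and 2 of GGAATG, the Ltbp2 window 3 of CAGAC, and the Cilp window none of the 3 motifs. Of the 119 genes called higher, 75 had a window, and CAGAC occurred in 57.3% of these, against 45.8% of the 5986 windows of tested genes, 51.1% of the 88 of genes called lower and 49.7% of all 27025 windows. GGAATG occurred in 13.3% of the windows of genes called higher, 11.5% of those of tested genes and 14.7% of all. TGANTCA occurred in 2.67%, 4.84% and 7.92%, respectively. In the windows of genes called lower, GGAATG occurred in 12.5% and TGANTCA in 11.4%. A match is a stretch of letters and not a site shown to be bound, and the shares were not tested.

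Among the lists, that of matrix glycoproteins had the most calls, but the lists were drawn up with earlier results of these data known. Of 31 listed genes, 20 were called higher, beside 1.56% of all genes tested, and none lower. Their median log2 ratio was 1.60 against −0.07 over all genes. These counts describe the lists and are no separate support. Fn1, which encodes fibronectin, had 2051 CPM (2013 to 2089), 2958 (2938 to 2978) and 2364 (2291 to 2438) in activated cells of libraries 1, 3 and 4. In the other Dcn fibroblasts it had 136, 355 and 725 CPM, so activated cells were alike across libraries while the comparison was not, and the mean log2 ratio was 2.84. Tnc, or tenascin C, an adhesion-modulating protein of remodelling tissue, had 54.1, 81.2 and 271 CPM against 2.25, 5.50 and 43.8 CPM. Its log2 ratios were 2.39, 2.56 and 2.39, and they depend on the 10 CPM added, since the levels in the other Dcn fibroblasts of libraries 1 and 3 lie below it. The mean was 2.44, or 3.45 with 1 CPM and 1.34 with 50 CPM added. In library 2, however, Tnc was at 326 CPM in the other Dcn fibroblasts and at 409 CPM in the 10 cells that met the rule, and its call was lost with UMIs pooled over libraries. Wisp1, a matricellular protein of the CCN family induced by Wnt signalling, had 57.2, 136 and 211 CPM against 3.51, 15.6 and 30.5 CPM, with a mean log2 ratio of 2.43. Of these 3 libraries, Wisp1 was highest in library 4 and lowest in library 1, and it was at 18.95 CPM in the 10 cells of library 2. Also called higher in the group were Sparc, Spp1, Ctgf, Wisp2, Fbn1, Eln, Fbln2, Fbln5, Bgn, Fmod, Comp, Aspn, Mfap4 and Mfap5, next to Thbs4 and Ltbp2. Of these, Fbln5 kept its call under 5 of the 13 alternative settings and Fbln2 and Bgn under 8 each, and Comp lost it when CPM was averaged per cell.

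Some levels rested on 1 library or a few cells. Eln, or elastin, had 1883 CPM (1847 to 1920) against 132 CPM in library 1, 1164 against 748 CPM in library 3, and 78.2 against 52.3 CPM in library 4. In library 4 a single cell gave 96 of its 134 UMIs, and without that cell the level was 22.3 CPM, below that of the other Dcn fibroblasts, so the sign turned in that library. The call for Eln was also lost without library 1 and without possible doublets. Spp1, or osteopontin, which macrophages also express, had a log2 ratio of 4.87 in library 4, where 303 of its 866 UMIs came from a single cell, and 1.44 and 2.19 in libraries 1 and 3. Crabp2, a retinoic acid binding protein outside this list, had a mean log2 ratio of 2.30, yet 368 of its 384 UMIs in library 1 came from 1 cell and only 14 of 254 cells had any.

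Fibrillar collagens were higher in activated cells of every library used. Of 19 collagen genes, 11 were called higher, beside 1.56% of all genes tested, and none lower. Their median log2 ratio was 1.61. Col1a1 had a mean log2 ratio of 2.51, from 13299 against 1752 CPM in library 1, 9938 against 2665 in library 3 and 9729 against 1460.5 in library 4. Col1a2, the partner chain, had 12042, 11482 and 11396 CPM against 2361, 3255 and 2092 CPM. Col3a1, which encodes type III collagen, had 23162, 14639 and 13303 CPM against 3188, 5588 and 3738 CPM. Between the highest and lowest library, activated cells differed by a log2 ratio of 0.45 for Col1a1, 0.08 for Col1a2 and 0.80 for Col3a1. The minor fibrillar chains Col5a1, Col5a2 and Col11a1 and the network or fibril-associated chains Col8a1, Col8a2, Col12a1, Col14a1 and Col16a1 were also called higher. Col11a1, rare in adult heart, had 72.4, 70.8 and 23.3 CPM against 2.08, 5.19 and 1.90 CPM. The basement membrane chains Col4a1 and Col4a2 had mean log2 ratios of 0.40 and 0.60, and the microfibrillar Col6a1, Col6a2 and Col6a3 of 0.76, 0.79 and 0.44, all without a call.

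Enzymes that crosslink collagen were higher as well, while most of those that fold it had smaller ratios. Lox, lysyl oxidase, had 352 CPM (337 to 368), 845.5 (835 to 856) and 867 (824 to 913) in libraries 1, 3 and 4, against 62.1, 128 and 139 CPM, a mean log2 ratio of 2.51. Loxl1, Loxl2 and Loxl3 were called higher too, with mean log2 ratios of 1.11, 1.28 and 1.83. The calls of Loxl1 and Loxl2 were lost against all Dcn fibroblasts that were not activated. That of Loxl1 was also lost without library 1, and that of Loxl2 among cells of 10000 to 30000 UMIs. Of the 21 genes of collagen folding and crosslinking, 6 were called higher, beside 1.56% of all genes tested, and none lower. The remaining calls were P4ha2 and P4ha3, subunits of prolyl 4-hydroxylase, of which P4ha2 kept its call under only 6 of the 13 alternative settings. Serpinh1, the collagen chaperone HSP47, had a mean log2 ratio of 0.82, and Plod2, a lysyl hydroxylase, of 0.96. None of 20 genes of the endoplasmic reticulum and secretory pathway was called in either direction, and their median log2 ratio was 0.24.

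**Figure D3:**
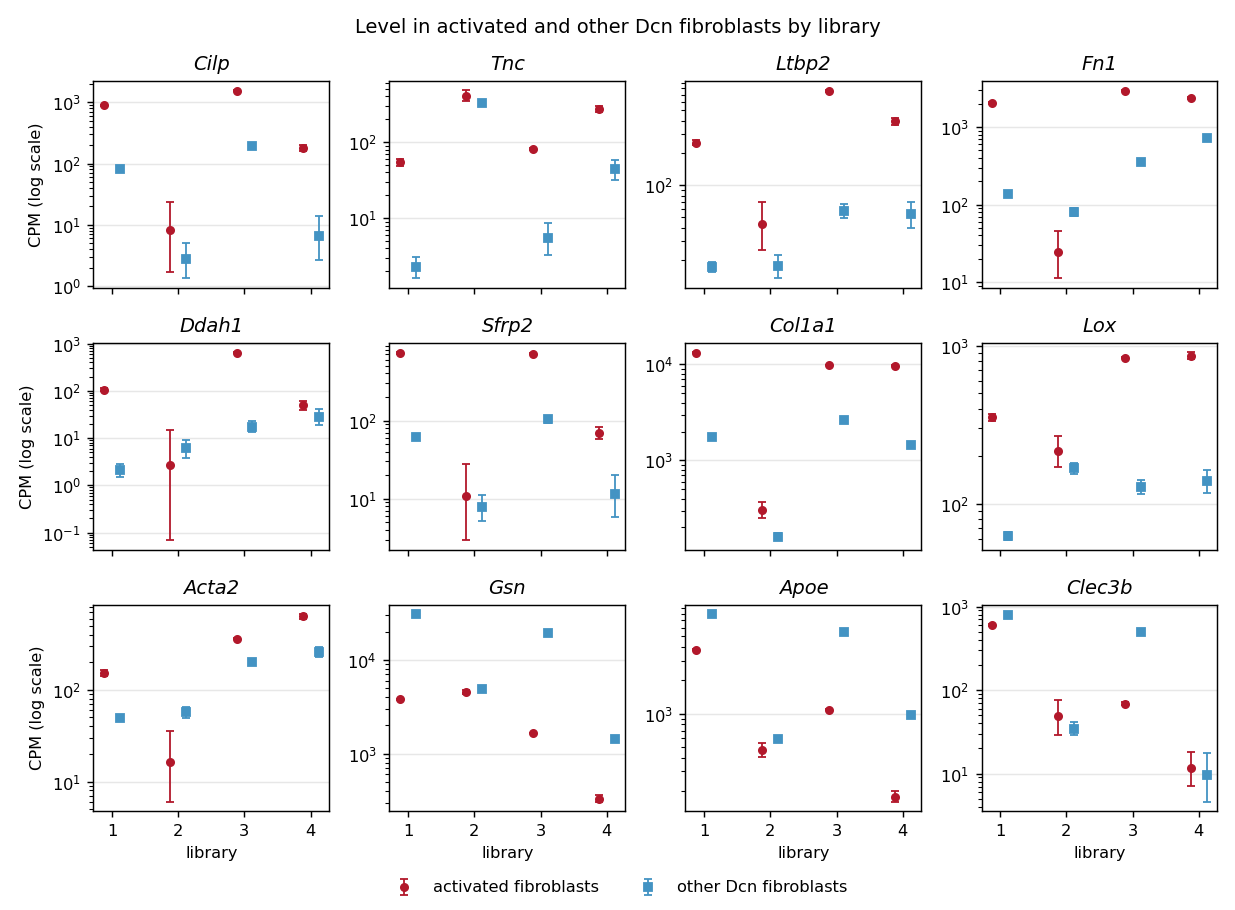
Level of 12 genes (CPM, log scale, y axes) in activated (circles) and other Dcn fibroblasts (squares) of libraries 1 to 4 (x axis), with exact Poisson 95% intervals. For Cilp, Ltbp2, Sfrp2, Col1a1 and Lox the activated cells lie above in libraries 1, 3 and 4, for Gsn and Apoe below, and in library 2, with 10 cells that met the rule, the classes lie closer together.

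Of 17 tested genes of the contractile and myofibroblast list, 6 were called higher, beside 1.56% of all genes tested, and none lower. They were Acta2, Tagln, Palld, Actn1, Itga11 and Ddah1, of which Actn1 and Itga11 kept their calls under 8 of the 13 alternative settings each. Acta2, alpha-smooth muscle actin, had 152 CPM (142 to 163) in library 1, 362 (355 to 370) in library 3 and 634 (596 to 672) in library 4, against 49.0, 203 and 260 CPM in the other Dcn fibroblasts. The mean log2 ratio was 1.17, and the 10% of activated cells with most Acta2 gave 80.2% of its UMIs in library 1 and 73.1% in library 3. It was 2.18 without possible doublets and 0.24, below the limit for a call, among cells of 10000 to 30000 UMIs in libraries 1 and 3, a setting chosen after seeing the data. An Acta2 UMI was found in 127 of 254, 909 of 1240 and 36 of 44 activated cells and in 25.6%, 39.6% and 8.74% of endothelial cells. The endothelial cells had a median of 7341, 9040.0 and 11417 UMIs. With all cells thinned to 2000 UMIs, the shares were 15.02%, 29.4% and 36.4% in activated and 9.44%, 13.2% and 2.59% in endothelial cells. In the 10 cells of library 2, Acta2 was at 16.2 CPM (5.96 to 35.4). Tagln, or transgelin, had a mean log2 ratio of 1.81 and Palld, which encodes the actin-bundling protein palladin, 1.61, although Palld differed in libraries 1 and 3 and hardly in library 4, where the log2 ratio was 0.08. Ddah1, which breaks down methylated arginines and was placed in this list with earlier results known, had 106, 647 and 50.2 CPM against 2.08, 17.4 and 28.5 CPM. Its log2 ratio was 4.58 in library 3 and 0.64 in library 4.

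Of 30 genes of the TGF-beta and activin pathway, 5 were called higher and 1 lower, beside 1.56% and 1.61% of all genes tested. The same shares stand beside the further lists of this paragraph. Higher were Ltbp2, the ligand Tgfb3 with a mean log2 ratio of 1.45, the secreted Fstl1 with 1.74, the integrin chain Itgb5 with 1.38 and Pmepa1, a target gene that dampens the pathway, with 1.19. Tgfbi, a TGF-beta-induced matrix protein, was called lower, at −1.35. It kept its call under 10 of the 13 alternative settings and lost it without library 4, among others. The ligand Tgfb1 had a mean log2 ratio of 0.65 and the receptors Tgfbr1 and Tgfbr2 of 0.32 and 0.14, without a call. Of 16 genes of the Wnt and BMP pathway, the secreted Wnt modulators Sfrp1 and Sfrp2 were called higher and the ligands Bmp2 and Bmp4 lower. Bmp2 kept its call under 10 and Bmp4 under 7 of the 13 alternative settings. Sfrp2 had 723 CPM (700.1 to 746), 717 (707 to 727) and 69.4 (57.5 to 83.1), against 61.3, 104 and 11.4 CPM. Its level was thus alike in libraries 1 and 3 and far lower in library 4, while it exceeded the other Dcn fibroblasts in each, with a mean log2 ratio of 2.64. Of 21 growth factor genes, the heparin-binding factors Ptn and Mdk were called higher, with 2.23 and 1.38, and Igfbp5, which binds insulin-like growth factors, lower, with −1.59. Of 21 matrix proteases and inhibitors, Adam12, Ctsk, Mmp23 and Timp1 were called higher and Mmp3 lower. Mmp23 kept its call under 7 of the 13 alternative settings. The call of Mmp3 was lost without library 4 and against all Dcn fibroblasts that were not activated.

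Of 22 tested transcription factors known from fibroblasts, 2 were called higher, beside 1.56% of all genes tested, and none lower. Runx1, a factor of blood and mesenchymal cells, had 136, 201 and 172 CPM against 24.3, 62.3 and 87.5 CPM, with a mean log2 ratio of 1.51. Meox1, a homeobox factor induced in cardiac fibroblasts under stress, had 136, 404 and 75.3 CPM against 47.1, 128 and 45.7 CPM, with 1.19, and its call was lost without library 3. Scx, the tendon factor scleraxis, had 30.7 and 66.8 CPM against 1.54 and 2.44 CPM in libraries 1 and 3, but 1.17 against 2.85 CPM in library 4, so it was not called. Tcf21, a factor of resident fibroblasts, had log2 ratios of −1.29, −0.79 and 0.80 and was not called.

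The lowest ratios included Gsn, Apoe, Hsd11b1, Efemp1 and Slpi, of which Gsn and Efemp1 were among the listed resting markers. Gsn, the actin-severing protein gelsolin, had 3783 CPM (3731 to 3835), 1663 (1648 to 1679) and 331 (304 to 359) in activated cells of libraries 1, 3 and 4. In the other Dcn fibroblasts it had 30748, 19332 and 1442 CPM, so it was lower in each library and the mean log2 ratio was −2.88. In library 2 the classes were close, at 4526 and 4839 CPM. Apoe, apolipoprotein E, had 3777, 1081 and 177 CPM against 7916, 5421 and 981 CPM, a mean log2 ratio of −1.93. Hsd11b1, which regenerates active glucocorticoid, had 17.2, 21.8 and 55.4 CPM against 284, 183 and 87.5 CPM, and Efemp1, a fibulin, 74.2, 10.5 and 16.3 CPM against 177, 129.8 and 105 CPM. Their mean log2 ratios were −2.21 and −2.01. Slpi, a secreted protease inhibitor, had the lowest mean log2 ratio, −3.93, from 3.88, 1.82 and 14.6 CPM against 86.1, 162 and 858 CPM. In Dcn fibroblasts with under 100 CPM of Postn, Slpi was at 99.0 and 258.6 CPM in libraries 1 and 3. In those with 100 to 500 CPM of Postn it was at 1.07 and 2.60 CPM. The mesothelial gene Msln was at 39.8 and 147.5 CPM, then at 0.0 and 0.577 CPM. Whether mesothelial cells carried the Slpi difference was not tested.

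Mesothelial genes were nearly absent from the activated cells. Of the 9 tested genes of the Prg4 and mesothelial list, 6 were called lower, beside 1.61% of all genes tested, namely Msln, Upk3b, Krt19, Krt8, Lrrn4 and Upk1b. Msln, Krt19 and Krt8 kept their calls under each of the 13 alternative settings, Upk3b under 10, Lrrn4 under 7 and Upk1b under 6. Msln, or mesothelin, had 0.185 and 0.582 CPM in libraries 1 and 3 and no UMI in library 4, against 35.3, 92.5 and 59.0 CPM. In the other Dcn fibroblasts a Msln UMI was found in 1.37%, 2.90% and 5.97% of cells, so few cells carried the difference. In activated cells the share was 0.394% in library 1, 0.806% in library 3 and 0 of 44 cells in library 4, which allows a share of up to 6.82% when 3 cells are taken as the limit for a count of 0 (Clopper-Pearson upper bound 8.04%). Endothelial cells gave 0.470% in library 1, which puts the activated cells there at background, and 0.359% in library 3, at less than the depth of the activated cells. Of 8 endothelial genes, Cdh5, Pecam1, Fabp4 and Egfl7 were called lower, and all 4 calls were lost without possible doublets, which were themselves defined by Cdh5 and Pecam1 among other genes. The calls of Cdh5, Fabp4 and Egfl7 were also lost without library 4. Vwf, of endothelial cells, was at 11.5, 11.1 and 0.583 CPM against 42.1, 83.7 and 59.9 CPM, and its call was also lost without possible doublets. The part that endothelial and mesothelial RNA in the other Dcn fibroblasts had in the ratios of further genes was not tested.

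Markers of resting fibroblasts differed between libraries. Of 16 tested, 2 were called lower, Gsn and Efemp1, beside 1.61% of all genes tested. Mfap5, a microfibril protein, was called higher, beside 1.56% of all. The list median log2 ratio was −0.92, −1.35 and 0.76 in libraries 1, 3 and 4. Summed, the 16 stood at 12234, 7282 and 11921 CPM in activated cells, against 40121, 27492 and 9483 CPM. Gsn was the most abundant of them in the other Dcn fibroblasts of libraries 1 and 3. Clec3b, which encodes tetranectin, had 598 CPM (578 to 619) in activated cells of library 1 but 69.0 (65.9 to 72.1) in library 3 and 11.7 (7.13 to 18.0) in library 4. In the other Dcn fibroblasts it had 799, 500.5 and 9.52 CPM, so the classes were near each other in library 1, far apart in library 3, and both low in library 4. A Clec3b UMI was found in 75.2%, 25.4% and 20.5% of activated cells and in 5.96%, 1.44% and 0.324% of endothelial cells. Thinned to 2000 UMIs per cell, the activated cells gave 44.3%, 9.25% and 0.0% (0 of 44 cells, which by the limit of 3 cells allows a share of up to 6.82%, with a Clopper-Pearson upper bound of 8.04%). Pi16, a peptidase inhibitor of adventitial fibroblasts, had 1006, 511 and 223 CPM against 464.5, 640 and 57.1 CPM, higher in libraries 1 and 4 and lower in library 3. Scara5, a ferritin receptor, had 59.1, 8.54 and 0.583 CPM against 180.2, 126 and 0.0 CPM.

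Of 14 chemokine genes none was called higher and 3, namely Ccl7, Ccl19 and Cxcl10, were called lower, beside 1.61% of all genes tested. The chemokine medians were −0.99, −0.76 and −0.07 in libraries 1, 3 and 4. Of 25 interferon-response genes 2 were called lower, Gbp5 and Rsad2, again beside 1.61% of all genes, with a list median of −0.45. Each kept its call under 7 of the 13 alternative settings, Rsad2 losing it among others without library 4 and Gbp5 without library 1 or library 4. None of 14 genes of MHC class I and peptide loading and none of 7 of MHC class II was called, with medians of −0.47 and −0.55, the latter from −0.15, 0.00304 and −1.69 in libraries 1, 3 and 4. None of 14 cell cycle genes was called, with medians of 0.043, 0.0494 and −1.15 by library. Mki67, a proliferation marker, had 0.923, 20.8 and 4.08 CPM in activated cells, and its UMI was found in 1.97%, 7.34% and 13.6% of them, or in 1.78% and 2.27% in libraries 3 and 4 after thinning. Endothelial cells gave 0.745%, 9.17% and 1.62%, or 4.17% and 0.324% in libraries 3 and 4 after thinning, so in library 3 the share in activated cells was below that of the endothelial cells, which can themselves divide. In library 3 the 572 Mki67 UMIs lay in 91 activated cells, with up to 58 in a single cell. Of 16 immediate early genes Atf3 was called lower, a call lost without library 4 and against all Dcn fibroblasts that were not activated. The list median was −0.62, with Junb, a subunit of AP-1, at 1881, 1686 and 1372 CPM against 4778, 3174 and 1515 CPM. None of 15 glycolysis genes was called, with a median of 0.00712.

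The levels of these genes were also set against the level of Postn across all Dcn fibroblasts of libraries 1 and 3. Because the activated cells were chosen by Postn and Cthrc1 and the genes by their ratios in these cells, the series describes the same choice in finer steps and is no separate support. Cells were grouped by their own Postn CPM and not by raw UMIs, from under 100 to 6000 or more, which gave 1482, 349, 283, 146 and 29 cells in library 1 and 212, 220.0, 488, 657 and 488 cells in library 3. Cilp was at 54.5, 296, 603, 1352 and 1716 CPM in these groups of library 1 and at 118, 311, 635, 1455 and 2198 CPM in library 3. Ltbp2 was at 16.1, 52.0, 172, 314 and 388.5 CPM in library 1 and at 56.8, 123, 251, 617 and 1096 CPM in library 3, an ordered series in both. Lox and Ddah1 were likewise higher in each further group. Gsn ran opposite, from 30646 through 20471, 7312 and 3296 to 1983 CPM in library 1 and from 16538 to 1038 CPM in library 3. Apoe was lower in each group from 500 CPM of Postn on, ending at 2249 and 474 CPM. Library 4 had at least 20 cells only in the groups under 2000 CPM of Postn. There Cilp was at 10.6, 67.1 and 109 CPM, but Gsn, at 1324, 956 and 1116 CPM, and Ddah1, at 36.4, 40.9 and 28.7 CPM, had no order, nor had Col1a1, at 2014, 7635 and 6438 CPM. In library 2, with only the groups under 500 CPM, Cilp was at 2.54 and 0.0 CPM.

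In libraries 1 and 3 Col1a1 was also higher in each further group, at 1581, 4844, 10373, 13450.2 and 16797 CPM in library 1 and at 2300, 4668, 7817, 8693 and 10511 CPM in library 3. Acta2 had no order, at 40.6, 79.1, 146, 181 and 74.1 CPM in library 1 and 274, 116, 359, 257 and 398 CPM in library 3. Clec3b in library 3 was at 465, 282, 171, 65.3 and 16.4 CPM, whereas in library 1 it went from 798 to 459 CPM and was 505 CPM in the highest group. Pi16 stayed between 409 and 973 CPM in library 1 and between 428 and 661 CPM in library 3. The endothelial gene Cdh5 was at 98.9, 54.6, 52.0, 29.8 and 10.0 CPM in library 1 and at 195, 242, 189, 69.8 and 26.1 CPM in library 3, and median depth went from 10889.5 to 18014 UMIs and from 11909.5 to 23349 UMIs. Whether depth or endothelial RNA contributed to the series was not tested.

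**Figure D4:**
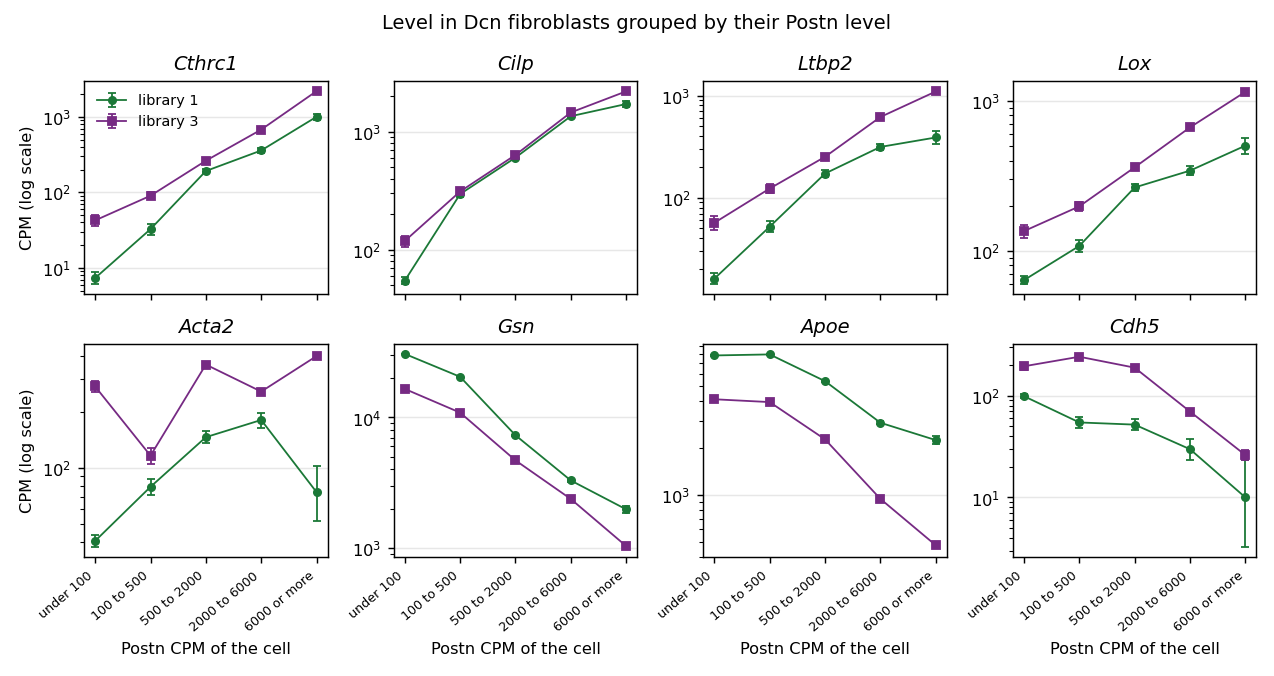
Level of 8 genes (CPM, log scale, y axes) in Dcn fibroblasts grouped by the Postn CPM of the cell (x axis), for library 1 (circles) and library 3 (squares), with exact Poisson 95% intervals. Cthrc1, Cilp, Ltbp2 and Lox are higher in each further group, Gsn is lower in each, and Acta2 has no order.

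Variation among the activated cells was described by the Fano factor, which rises with the mean level and so favours abundant transcripts. After thinning to 2000 UMIs, the genes with the highest Fano factors (variance over mean, near 1 for counting noise alone), ranked by the lowest value among libraries 1, 3 and 4, were Mgp, Malat1, Col3a1, Eln, Col1a1, Col1a2, Dcn, Postn, Tagln and Timp1. Mgp, which encodes the calcification inhibitor matrix Gla protein, had Fano factors of 25.5, 31.7 and 38.5 in libraries 1, 3 and 4, beside a median over genes of 1.05, 1.06 and 0.999. Eln had 32.6, 7.10 and 29.5, and Tagln 6.72, 4.88 and 4.77. Among 1233 thinned activated cells of library 3, Spearman's rho was 0.488 between Postn and Cthrc1, 0.405 between Postn and Cilp and 0.319 between Postn and Tagln. For Postn with Acta2 it was 0.047 and with Col3a1 0.0735. Cthrc1 had a rho of −0.385 with Gsn, 0.363 with Tagln and 0.148 with Cilp. These are descriptions over cells of a single library, chosen by Postn and Cthrc1, with thinned counts in which 74.7% of the cells had a Cilp UMI and 29.4% an Acta2 UMI, against 4.08% and 13.2% of thinned endothelial cells. Over all libraries, just inside the limit on Postn, 50 cells (16, 2, 28 and 4 in libraries 1 to 4) with 5 or 6 UMIs had 407 CPM of Cilp and 7786 CPM of Col1a1, and just outside, 59 cells (24, 1, 31 and 3) with 3 or 4 UMIs and Cthrc1 had 169 and 4821 CPM. The 281 cells (76, 1, 196 and 8 in libraries 1 to 4) with 1 UMI of Cthrc1 had 976 CPM of Cilp. The 706 (245, 23, 407 and 31) with Postn but no Cthrc1 had 809.8 CPM. All these values are pooled over libraries whose Cilp levels differ.

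Activated cells were also compared between libraries 1, 3 and 4. Of 3657 genes with at least 50 CPM in activated cells of any of them, 291 differed at least 4-fold between the highest and lowest library, or 7.96%. The highest level was in library 4 for 134 of these, in library 1 for 88 and in library 3 for 69, and with library 4 left out only 11 genes differed 4-fold. Library 4 had 44 activated cells, in which the 7 T and NK cell markers summed to 78.2 CPM, against 1.85 and 1.75 CPM in libraries 1 and 3. In the other Dcn fibroblasts these markers summed to 124 CPM in library 4 and to 3.46 and 1.83 CPM in libraries 1 and 3. The most abundant of them in activated cells of library 4 was Cd3e, at 32.1 CPM, and their part in the differences was not tested. Cxcl9, an interferon-gamma-induced chemokine for T cells, had 2450.0 CPM in library 4 against 25.9 in library 1 and 14.0 in library 3, and in library 4 a single cell gave 30.3% of its UMIs. The other Dcn fibroblasts had 3791, 43.2 and 17.7 CPM, in the same order. Ccl2, a chemokine for monocytes, had 6260 CPM in library 4 against 264 and 222 CPM, and 6213, 491 and 370.1 CPM in the other Dcn fibroblasts. The GTPase gene Gbp4 had 1118 CPM in library 4 against 6.83 and 6.36 CPM, and Iigp1, another, 2924 against 158 and 93.4 CPM. Ly6a, which encodes the surface antigen Sca-1, had 6533 against 461 and 227 CPM. Saa3, Serpina3g, Ccl7, Cxcl10, Igtp, Ifi47 and Cd74 were also highest in library 4. Ccl5, a chemokine that T cells also make, was too, but 815 of its 1429 UMIs there came from 1 cell. Gbp2b was at 881 CPM in library 4 against no UMI in the activated cells of libraries 1 and 3, with upper limits of 0.681 and 0.134 CPM.

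For several of these genes the other Dcn fibroblasts of the same libraries differed in the same order. The log2 ratio between the extreme libraries was 6.68 in activated and 7.10 in other Dcn fibroblasts for Cxcl9, 4.76 and 4.03 for Ccl2, and 4.81 and 5.37 for Clec3b. Cxcl14, a chemokine of resting stroma, was an exception, with 1920 CPM in activated cells of library 4 against 164 and 79.8 CPM in libraries 1 and 3, while the other Dcn fibroblasts had 387, 436 and 432 CPM. Thbs4 was another, with log2 ratios of 4.41 in activated and 0.73 in other Dcn fibroblasts, and Eln a further case with 4.42 and 1.19. Aspn, or asporin, which binds TGF-beta, had 912 CPM in library 3, 489 in library 1 and 39.7 in library 4, and 197, 156 and 6.66 CPM in the other Dcn fibroblasts. Ptn had 1463, 1323 and 66.5 CPM in libraries 1, 3 and 4. The serine protease Htra3 had 1129.6, 302 and 42.6 CPM, with 1459, 1159.9 and 15.2 CPM in the other Dcn fibroblasts. The red cell genes Hbb-bs and Hba-a1 were highest in library 1, at 605 and 217 CPM, where a single cell gave 79.4% of the Hbb-bs and 73.4% of the Hba-a1 UMIs. Without the top cell for each gene the levels were 125 and 58.2 CPM in library 1. The other Dcn fibroblasts of library 1 had 1814 and 643 CPM. Library, graft and condition cannot be told apart in these differences.

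**Figure D5:**
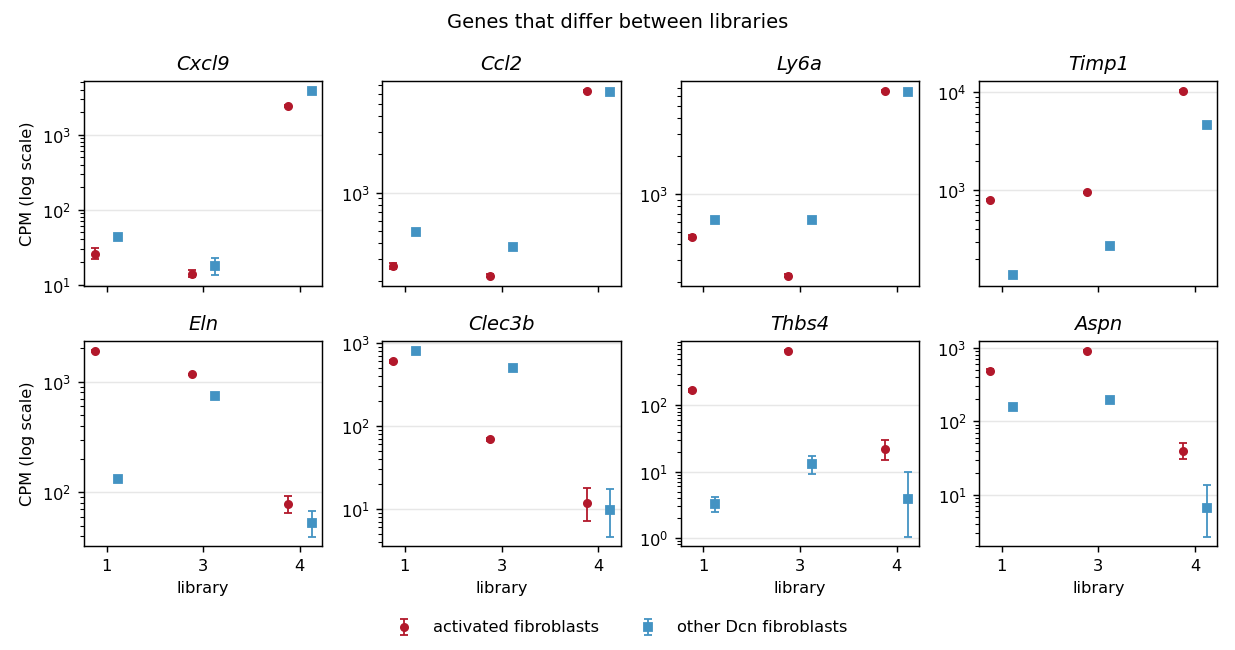
Level of 8 genes (CPM, log scale, y axes) in activated (circles) and other Dcn fibroblasts (squares) of libraries 1, 3 and 4 (x axis), with exact Poisson 95% intervals. Cxcl9, Ccl2 and Ly6a are highest in library 4 in both classes, Clec3b is highest in library 1, and Thbs4 is highest in library 3 with a wide gap between the classes.

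The stromal cells with at least 5 UMIs of Prg4, which the rule kept out, had not been filtered on Postn and Cthrc1, unlike the other Dcn fibroblasts, so the numbers of calls in the comparisons cannot be set against each other. There were 117, 623, 221 and 55 such cells in libraries 1 to 4, with 1388, 2992 and 898 CPM of Postn and 214, 490.4 and 153 CPM of Cthrc1 in libraries 1, 3 and 4. Of 7380 genes tested in libraries 1, 3 and 4, 15 were called higher in activated cells, or 0.203%, and 46 lower, or 0.623%. The genes named from this comparison were chosen after their values were seen. Eln led those higher, with 1883, 1164 and 78.2 CPM against 238, 496 and 18.7 CPM, although it was at 22.3 CPM in library 4 without the cell named above, followed by Sfrp2, Fbn2, Ptn and Cpz, and Col1a1 was the highest in level, with a mean log2 ratio of 1.06. Comp, cartilage oligomeric matrix protein, was higher in activated than in other Dcn fibroblasts, with 273, 495 and 28.0 CPM against 58.9, 130 and 5.71 CPM, but lower than in Prg4 cells, with 854, 1881 and 248 CPM. In library 4 only 5 of 44 activated cells had a Comp UMI, and a single cell gave 24 of the 48. The mean log2 ratios of Comp were 1.72 and −2.09. Gsn had 19239, 8310 and 1976 CPM in the Prg4 cells. Cilp was at 752, 1172 and 290 CPM in them, so activated cells were above in libraries 1 and 3 and below in library 4, and the mean log2 ratio was −0.01. Ltbp2 was at 252.5, 758 and 469 CPM, with −0.09. Thbs4, at 360, 769 and 29.5 CPM, was higher in the Prg4 cells of each library, and Spp1, at 356, 996 and 501 CPM, had a mean log2 ratio of −1.79 without a call. Lower than in Prg4 cells were also the Wnt inhibitor Wif1, at 3.51, 1.89 and 1.17 CPM against 164, 185 and 28.4 CPM, and the prostaglandin synthase gene Ptgds, at 0.923, 3.85 and 1.17 CPM against 539, 173 and 11.3 CPM. Ptn, at 465, 546 and 13.6 CPM in the Prg4 cells, and Sfrp2, at 224, 230.3 and 11.3 CPM, were higher in the activated cells of each library, with mean log2 ratios of 1.53 and 1.71.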

How the data were processed

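The authors deposited a single merged matrix of counts of UMIs per gene and cell, without normalization, which they made with Cell Ranger 3.0.0 (per the file headers) on mm10 with the genes of Ensembl 92. The submitters' processing notes also name CASAVA 1.8 and Seurat. The study's own clusters and cell totals were not used here. The matrix holds 516154088 UMIs, 96020294, 115162601, 138892048 and 166079145 in libraries 1 to 4, over 30905 genes. After the filter on genes and mitochondrial UMIs, mitochondrial genes were removed, and, since no suffix is tied to a graft, the libraries were not treated as replicates. Levels are pooled UMIs of a class in a library over its non-mitochondrial UMIs. Ratios were taken within each library with at least 30 cells of both classes, 10 CPM added, and averaged over 3 libraries. Genes at 20 CPM or more in either class in any such library were tested, and genes at 50 CPM or more for differences between libraries. No doublet caller was run and possible doublets were left out only in an alternative. Symbols shared by more than 1 gene were read by their first identifier.

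Genes were named from the 15 with the highest and the 15 with the lowest mean log2 ratio among calls. They were also taken from 31 lists (445 of 449 names matched). Further sources were the 12 genes with the largest ratio between libraries and the 12 next that were in a list. The 10 with the highest Fano factor at a mean of at least 0.1 UMI were added. So were Acta2, Cilp, Comp, Tnc, Wisp1, Col1a1, Clec3b, Pi16 and Mki67. Not every gene of these sets is described. Ribosomal and predicted genes were passed over. A withheld item that this rule would name is not reported here. The cells, lists and genes were chosen with earlier results of these data known. The steps were tested on simulated counts of 7600 genes, where 100.0% of genes changed 4-fold were called in the right direction and 0.0% of unchanged genes were called. The simulated counts had Poisson error only, and the changed genes had at least 50 CPM in each library used. Spread between cells was not simulated, so this checks the arithmetic of the steps and gives no error rate for the calls. Sequences are RefSeq windows of GRCm38.p6 and gene positions those of GENCODE M21 on GRCm38, the build of mm10. Figures were drawn with matplotlib 3.10.9, and values computed with scipy 1.17.1, pandas 2.3.3 and numpy 2.4.6 under Python 3.11.15.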

Additional observations from a re-analysis of the deposited data

How the results depend on the processing

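The share of Dcn fibroblasts that met the rule, 32.6%, was 30.1% with at least 5 UMIs of Dcn, 30.2% with at least 10 of Postn, 26.7% with at least 2 of Cthrc1, 30.2% without possible doublets and 20.4% with limits per 10000 UMIs, and ran from 11.5% to 52.5% when a library was left out. The 119 genes called higher became 180 with 1 CPM added, 60 with 50 CPM, 226 with UMIs pooled over libraries and 71 against all Dcn fibroblasts that were not activated, and 125 to 145 when a library was left out. The 123 called lower became 273, 23, 243 and 74 under these settings, 139 to 174 when a library was left out, and 249 in cells of 10000 to 30000 UMIs, a setting chosen after seeing the data that left only libraries 1 and 3. Of the genes called, 102 to 105 of those higher and 73 to 107 of those lower kept their call when a library was left out, and no gene had the opposite call under any setting. The 291 genes that differed 4-fold between libraries became 117 with 50 CPM added and 450 in thinned cells, and 11 to 217 when a library was left out. Of the 15 highest genes 12 and of the 15 lowest 9 kept their call under each of the 13 settings. Those 12 include Postn and Cthrc1, whose calls followed from the rule. The log2 ratio of Mki67, not called, ran from −0.76 to 0.75. The causes of these shifts were not tested. Libraries 2 and 4 gave 10 and 44 cells that met the rule, which limits the precision of their levels. No paired analysis was possible because these values come from no test, and no column carries a replicate number of a graft. The ratios themselves were taken within each library.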
